A study of Mus musculus with 12 samples.

Results

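The enzymes that make and use α-ketoglutarate (αKG) were examined at the level of their promoter chromatin in cardiomyocytes (CMs), the contracting cells of heart muscle, from adult mice. The members were Idh1, Idh2, Idh3a, Idh3b, Ogdh, Dlst, Glud1, Got1 and Got2. They were chosen by function, with earlier results of these data known. Every peak of histone H3 trimethylated at lysine 4 (H3K4me3) that the authors had assigned to one of these 9 genes was taken. This gave 9 peaks, 1 for each gene, of 15848 union peaks in all, and all 9 passed the filter on low values (a mean over the libraries of 10 or more) and so were among the 15039 tested peaks. Chromatin immunoprecipitation followed by sequencing (ChIP–seq) had been run with an H3K4me3 antibody on nuclei of adult CMs sorted by flow cytometry. The 3 control libraries (CtrlCre) came from mice with the αMHC-Cre transgene and intact Cpt1b alleles, and the 3 mutant libraries (Cpt1bcKO) from mice with the same transgene and 2 floxed alleles of Cpt1b, which encodes the muscle enzyme for mitochondrial import of long-chain fatty acids. Both groups thus carried Cre recombinase under the promoter of the α-myosin heavy chain gene, which acts in CMs and removes Cpt1b from embryonic stages onwards, so the mutant CMs had matured without the enzyme. The study names mice as the replicates of its joint analysis of expression and ChIP–seq, but the labels tie no library to a mouse, and the age at ChIP–seq was not given in the sources used here. The 6 input libraries were not used here.

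αKG is an intermediate of the Krebs cycle. Isocitrate dehydrogenases form it from isocitrate, the αKG dehydrogenase (OGDH) complex converts it to succinyl-CoA, and glutamate dehydrogenase and the aspartate aminotransferases exchange it with glutamate. It is also a cosubstrate of dioxygenases in the nucleus, among them the demethylases that remove methyl groups from H3K4. H3K4me3 itself marks the start of active genes, and wide domains of it are known at genes that a cell type transcribes strongly. The comparison asked whether the mark at the genes of αKG turnover differed once CMs could not burn long-chain fatty acids.

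Stretches of promoter sequence are shown for 3 genes, namely Idh1 and Glud1 with separated groups and Got1 with the widest domain. Groups were separated at 2 of the 9 peaks, against 16.3% of all tested peaks, and neither difference passed the test after adjustment. The stretches were read from the RefSeq promoter table (GRCm38.p6), which held 14 windows of 300 bases for 8 of the 9 genes and none for Idh3a. Of these windows, 13 lay inside the peak of their gene, and the exception was the window of the second Idh1 start. In the first 3 sequences the capitals mark CpG dinucleotides, the sites of DNA methylation that are dense in many H3K4me3-bearing promoters. In the last, the capitals mark CCAAT boxes on either strand. Each sequence is read on the strand of the gene and lies just upstream of a start site.
Idh1, start within the peak, chr1:65186501-65186682, minus strand: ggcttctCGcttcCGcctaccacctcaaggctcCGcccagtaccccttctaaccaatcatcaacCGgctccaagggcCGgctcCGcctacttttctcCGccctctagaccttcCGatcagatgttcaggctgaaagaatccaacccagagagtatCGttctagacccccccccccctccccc
Idh1, start further into the gene, chr1:65179182-65179381, minus strand: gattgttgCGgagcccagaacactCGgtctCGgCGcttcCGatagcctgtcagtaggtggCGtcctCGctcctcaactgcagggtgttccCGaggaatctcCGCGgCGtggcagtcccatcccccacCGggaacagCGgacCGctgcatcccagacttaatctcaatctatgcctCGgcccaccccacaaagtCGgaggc
Glud1, chr14:34310527-34310726, plus strand: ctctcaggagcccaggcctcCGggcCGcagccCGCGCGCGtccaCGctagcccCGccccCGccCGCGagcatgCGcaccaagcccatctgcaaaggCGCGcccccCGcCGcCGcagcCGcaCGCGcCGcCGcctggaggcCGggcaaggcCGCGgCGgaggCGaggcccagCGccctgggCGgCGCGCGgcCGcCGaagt
Got1, chr19:43524606-43524805, minus strand: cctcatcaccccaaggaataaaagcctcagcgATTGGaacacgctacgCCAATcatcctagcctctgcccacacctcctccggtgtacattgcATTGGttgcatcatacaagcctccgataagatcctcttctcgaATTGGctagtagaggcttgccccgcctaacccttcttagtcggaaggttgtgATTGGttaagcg

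The 182 bases printed for the first Idh1 start, from 203 to 22 bases before it, held 9 CpG dinucleotides. The 200 bases printed for its second start, from 239 to 40 bases before it, held 16. The 200 bases directly before the Glud1 start held 34. The whole Glud1 window was 81.0% G and C with 51 CpG dinucleotides, at the 99.3rd and 99.4th percentiles of the 32851 windows in the table. The Got1 stretch held 5 CCAAT boxes and its whole window 6, a number reached by 26 of the 32851 windows (0.0791%). The motifs searched, on both strands, were the CCAAT box (CCAAT), the GC box (GGGCGG), the E-box (CACGTG), the palindromic core of the NRF1 site, the binding motif of oestrogen-related receptors, ERR (TCAAGGTCA) and the TATA box (TATAAA). Of the 14 windows, 10 (71.4%, from 5 genes) held a CCAAT box, against 37.4% of all windows, and 9 (64.3%, from 5 genes) a GC box, against 35.7% of all windows. An E-box was found in windows of Ogdh alone (7.15% of all windows), and a TATA box in that of Got2 alone (13.6% of all windows). The letters of the NRF1 core (0.971% of all windows) and of the ERR motif (0.423% of all windows) were in none of the 14 windows. The 6 Ogdh windows overlap in part and are not independent.

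All 9 peaks covered the annotated start of their gene, and all 9 were broad, that is wider than 2222 bases, the 75th percentile of the tested peaks. Their widths ran from 2567 bases at Dlst to 10468 bases at Got1 with a median of 3133 bases, against a median of 1514 bases over all tested peaks. The Got1 peak was the 42nd widest of the 15039 and 1 of 45 that reached 10 kb. It extended 853 bases upstream and 9615 bases downstream of the start, and 87.5% of it lay in introns of Got1. The Idh2 and Ogdh peaks, of 4974 and 4297 bases, were the next widest. At 8 genes the summit lay inside the transcribed region, between 168 bases (Dlst) and 718 bases (Ogdh) downstream of the start. At Idh1 it lay upstream, at -301 bases, on the side of Pikfyve, a lipid kinase gene whose start falls in the same peak. Starts of other genes also fell in the peaks named for Idh2 (Gm45203), Dlst (Prox2) and Glud1 (Shld2), so the values at these 4 peaks are shared between neighbours and cannot be divided between them.

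**Figure D1:**
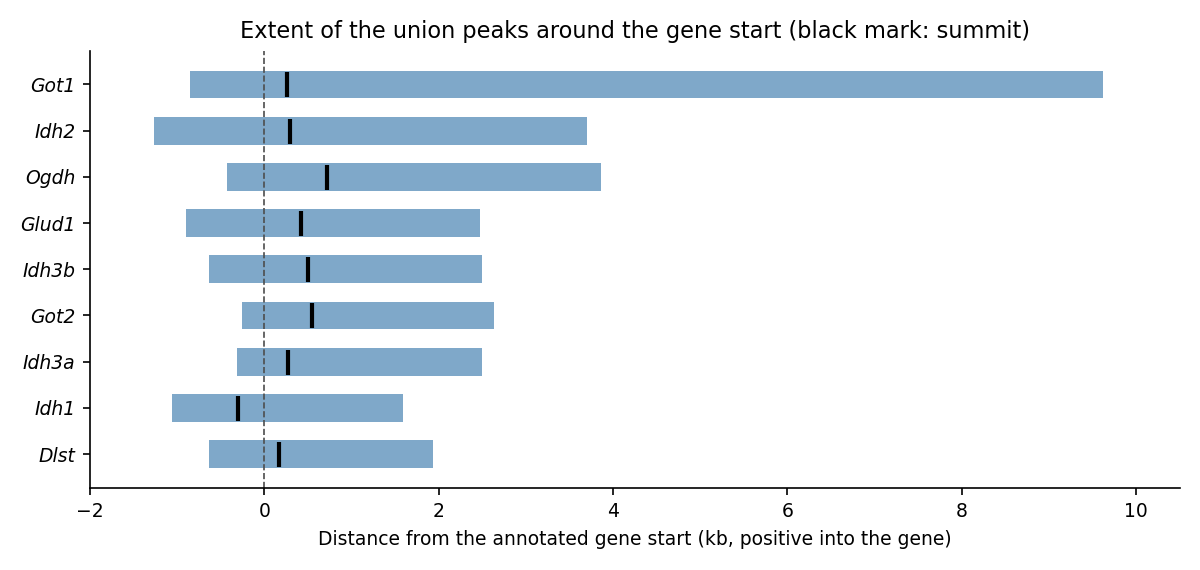
Extent of each union peak (bars) in kb from the annotated start of its gene, with the summit as a black mark and positive values pointing into the gene. The Got1 bar reaches 9615 bases into the gene, while the other 8 bars end between 1586 bases (Idh1) and 3866 bases (Ogdh).

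Base composition was a feature the choice of genes did not use. The 9 peaks held between 45.9% and 53.6% G and C with a median of 50.9%, below the median of 55.6% over all tested peaks and of 53.9% over the 3757 broad peaks. Of the 9, 6 fell in the lowest quartile of the tested peaks for this share and 3 in the second. The observed over expected ratio of CpG dinucleotides had a median of 0.559 in the 9 peaks, 0.643 over all tested peaks and 0.602 over the broad ones. Ratios ran from 0.396 at Idh3b to 0.731 at Glud1. These are descriptions of whole peaks, in which wide intronic flanks are averaged with the start site.

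Depth and cell identity were checked next. The counts of reads in peaks, recovered from the normalized values, totalled between 763133 (CtrlCre replicate 2) and 2766416 (Cpt1bcKO replicate 2) per library, a ratio of 3.63. The 9 peaks held between 66 and 166 reads each in CtrlCre replicate 2, which gives a counting error of 7.76% to 12.3%, and between 175 and 986 reads in the other 5 libraries, with errors of 3.18% to 7.56%. Peaks were found at 9 of 10 CM marker genes (Mb had none), with summed normalized counts of 7768 to 9446 in CtrlCre and 5955 to 8442 in Cpt1bcKO. Of the markers of other heart cells, 1 of 6 fibroblast genes (Pdgfra, 58 to 69 against 56 to 63), 1 of 6 endothelial genes (Kdr, 39 to 91 against 31 to 51), 3 of 5 smooth muscle and pericyte genes (140 to 217 against 32 to 80) and 0 of 6 immune genes had a tested peak. The smooth muscle actin gene Acta2 fell, with a log2 difference of -2.23 (SE 0.30, limma adjusted p = 7.36e-05). The part of these differences in the values below was not tested. The Cpt1b peak read 428, 407 and 436 in CtrlCre and 572, 689 and 568 in Cpt1bcKO, a log2 difference of 0.52 (SE 0.10, limma adjusted p = 0.00357). The peak ends before the exons that Cre removes, so it is no check of the genotype.

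Across the 9 enzymes, normalized H3K4me3 differed little between the genotypes. These values show changes relative to other peaks only, since a change shared by all peaks is removed by the size factors. By western blot, the study reports a lower H3K4me3 level in sorted Cpt1bcKO nuclei, which these values cannot show. Log2 differences (Cpt1bcKO minus CtrlCre, on log2 of the normalized count plus 1) ran from -0.21 at Idh2 to 0.19 at Glud1, with 6 above 0 and 3 below. None of the 9 had an adjusted p under 0.05 in limma, against 2.93% of all tested peaks (441, of which 1.11% higher and 1.82% lower). With an unadjusted p under 0.05 there was 1 of 9 (Idh2, lower), against 12.8% of all tested peaks (5.84% higher and 6.98% lower). limma-voom on the recovered counts gave the same numbers, 0 and 1. The groups did not overlap at 2 of the 9 peaks, Idh1 and Glud1, both higher in Cpt1bcKO, against 16.3% of tested peaks without overlap, of which 7.80% were higher and 8.46% lower. The median log2 difference of the 9 was 0.079, against 0.0057 over all tested peaks and 0.0025 over the broad ones. It turned to -0.0055 once the shallowest library, CtrlCre replicate 2, was left out. Since the labels tie no library to a mouse, the p-values measure the spread between these libraries, which may be technical in part.

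**Figure D2:**
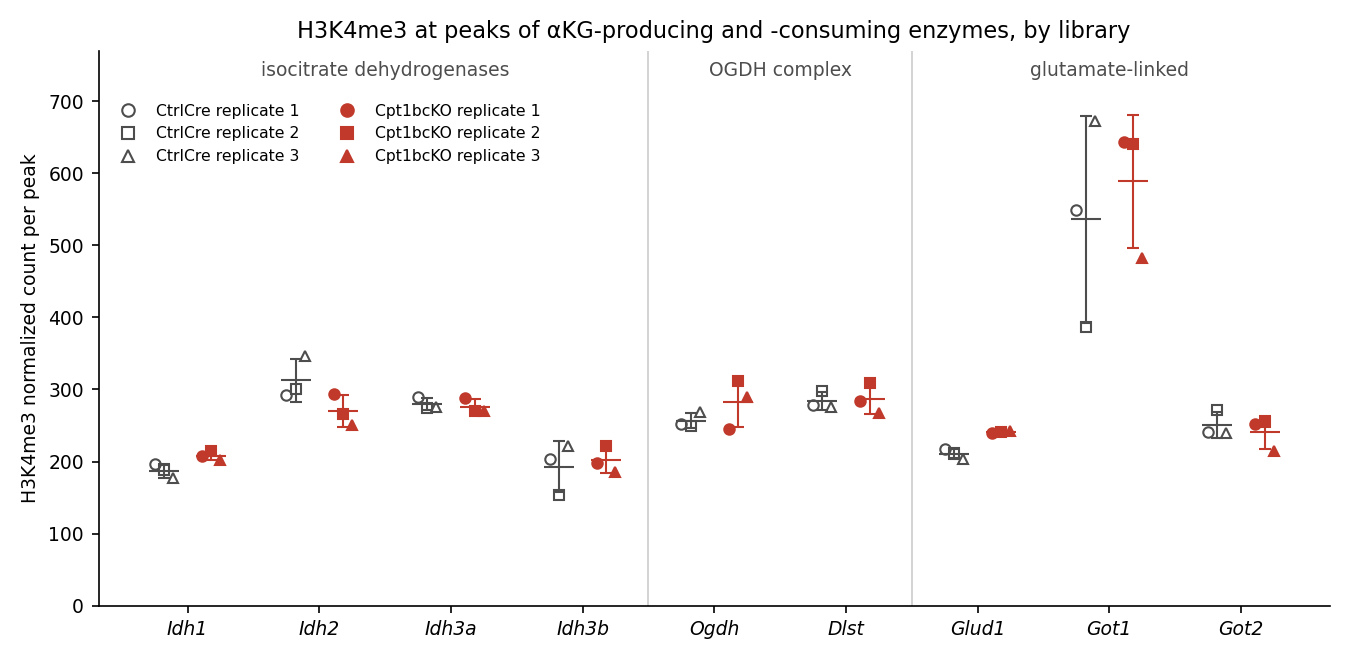
Normalized H3K4me3 count per peak for the 9 enzymes in each of the 6 libraries (open grey symbols CtrlCre, filled red symbols Cpt1bcKO), with the mean (horizontal mark) and SD (bars, n = 3). The 3 Cpt1bcKO values lie above the 3 CtrlCre values at Idh1 and Glud1, and at Got1 the CtrlCre values spread from 386 to 673.

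The isocitrate dehydrogenases come in 2 kinds. Idh1 and Idh2 encode the NADP-dependent enzymes of the cytosol and of the mitochondria, which can run in both directions, and Idh3a and Idh3b encode the catalytic and a further subunit of the NAD-dependent enzyme of the Krebs cycle. Of the 4 differences, 2 lay above 0 and 2 below, and none passed the test after adjustment. Those of Idh3a and Idh3b were smaller than their SE, so the signs do not show whether the 4 peaks moved together. The summed level of the 4 peaks was 973 ± 54.0 in CtrlCre and 956 ± 42.5 in Cpt1bcKO (SD, n = 3 each), a difference of -1.68%.

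At Idh1 (chr1:65184914-65187565, mm10, minus strand), the normalized counts were 196, 188 and 177 in CtrlCre and 208, 215 and 202 in Cpt1bcKO. All 3 Cpt1bcKO values exceeded all 3 CtrlCre values, by a small margin. The means were 187 ± 9.54 and 208 ± 6.51 (SD, n = 3 each), 11.4% higher in Cpt1bcKO. The log2 difference was 0.16 (SE 0.10, 95% CI -0.051 to 0.36) and did not pass the test (limma adjusted p = 0.568). The peak covers the start whose upstream sequence is printed first and holds 11.0% exon, 48.8% intron and 40.2% sequence outside Idh1.

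Idh2 was the only enzyme with an unadjusted p under 0.05. Its peak (chr7:80111691-80116665, mm10, minus strand) read 292, 300 and 347 in CtrlCre and 294, 266 and 250 in Cpt1bcKO. The groups overlapped, since the highest Cpt1bcKO value lay just above the lowest CtrlCre value. The means were 313 ± 29.7 and 270 ± 22.3 (SD, n = 3 each), a difference of -13.7%. The log2 difference was -0.21 (SE 0.10, 95% CI -0.42 to -0.0021), with a limma p of 0.0480 and an adjusted p of 0.382. In a bulk preparation a lower value cannot tell fewer nuclei with the mark from less mark per nucleus. The log2 difference was -0.14 without CtrlCre replicate 3, -0.16 without Cpt1bcKO replicate 3 and -0.20 without Cpt1bcKO replicate 2, and with each of these left out the unadjusted p was above 0.05. Without any of the other 3 libraries it lay between -0.27 and -0.24 with an unadjusted p under 0.05.

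The subunits of the NAD-dependent enzyme showed no difference beyond their spread. Idh3a (chr9:54586013-54588831, plus strand) read 289, 274 and 276 in CtrlCre and 288, 270 and 270 in Cpt1bcKO. The 2 groups covered nearly the same range, and the log2 difference was -0.019 (SE 0.093, 95% CI -0.21 to 0.17, limma adjusted p = 0.971). Idh3b (chr2:130282046-130285179, minus strand) read 204, 153 and 222 in CtrlCre and 198, 222 and 186 in Cpt1bcKO. The lowest of these 6, in the shallowest library, rested on 66 reads with a counting error of 12.3%. Its log2 difference was 0.079 (SE 0.12, 95% CI -0.18 to 0.33, limma adjusted p = 0.866), and it turned to -0.079 without that library.

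The OGDH complex was represented by Ogdh, its first enzyme (E1), and Dlst, the succinyltransferase at its core (E2). Both differences lay above 0, and neither passed the test. The summed level of the pair was 541 ± 8.50 in CtrlCre and 569 ± 47.0 in Cpt1bcKO (SD, n = 3 each), a difference of 5.30%. Ogdh (chr11:6291202-6295499, plus strand) read 252, 249 and 269 in CtrlCre and 245, 312 and 290 in Cpt1bcKO. The Cpt1bcKO libraries included both the lowest and the highest of the 6 values, so the groups overlapped. For Ogdh this gave a log2 difference of 0.13 (SE 0.10, 95% CI -0.082 to 0.34, limma adjusted p = 0.678), and it ran from 0.055 without Cpt1bcKO replicate 2 to 0.23 without Cpt1bcKO replicate 1. Ogdh had the most starts inside its peak, with 6 in the RefSeq table. Dlst (chr12:85110200-85112767, plus strand) read 279, 298 and 275 in CtrlCre and 284, 309 and 268 in Cpt1bcKO. The range of the Cpt1bcKO values enclosed that of the controls. For Dlst this gave a log2 difference of 0.014 (SE 0.096, 95% CI -0.19 to 0.21, limma adjusted p = 0.979).

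The glutamate-linked enzymes are Glud1, the mitochondrial glutamate dehydrogenase, and Got1 and Got2, the cytosolic and mitochondrial aspartate aminotransferases of the malate-aspartate shuttle. Their summed level was 998 ± 123 in CtrlCre and 1070 ± 114 in Cpt1bcKO (SD, n = 3 each), a difference of 7.22% with overlapping groups. Glud1 had the largest difference above 0 of the 9 genes. Its peak (chr14:34309825-34313205, plus strand) read 217, 212 and 203 in CtrlCre and 239, 241 and 242 in Cpt1bcKO. The groups did not overlap, and the 3 Cpt1bcKO values lay within 3 normalized counts of each other. The means were 211 ± 7.09 and 241 ± 1.53 (SD, n = 3 each), 14.2% higher in Cpt1bcKO. The log2 difference was 0.19 (SE 0.095, 95% CI -0.0057 to 0.39), with a limma p of 0.0564 and an adjusted p of 0.411. The SD of 1.53 is smaller than counting error alone would give at 211 to 371 reads, of which the error was 5.19% to 6.88%, so the closeness of the 3 values is no measure of their precision.

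Got1 carried the highest total of the 9 and the widest spread. Its peak (chr19:43514990-43525458, minus strand) read 549, 386 and 673 in CtrlCre and 643, 641 and 482 in Cpt1bcKO. The groups overlapped broadly, and the controls alone spanned a range that held all 3 Cpt1bcKO values. The means were 536 ± 144 and 589 ± 92.4 (SD, n = 3 each). On the log2 scale the difference was 0.16 (SE 0.15, 95% CI -0.15 to 0.47, limma adjusted p = 0.740). Its sign depended on the shallowest library, since it was -0.059 without CtrlCre replicate 2, and it was 0.34 without CtrlCre replicate 3. Relative to its own mean, Got1 deviated on the log2 scale by -0.0083, -0.52 and 0.29 in the 3 CtrlCre libraries and by 0.22, 0.21 and -0.20 in the 3 Cpt1bcKO libraries. The 505 tested peaks of at least 5000 bases deviated in the median by 0.017, -0.016 and 0.074 and by -0.021, 0.064 and -0.10 in the same order, and the CM marker peaks by 0.063, -0.053 and 0.24 and by -0.069, 0.099 and -0.42. The lowest Got1 values, in CtrlCre replicate 2 and Cpt1bcKO replicate 3, fell in libraries where the CM marker peaks were also below their mean. In Cpt1bcKO replicate 1 the CM marker peaks were below their mean too (-0.069), while Got1 was above its own (0.22). The part of such library differences in the Got1 values was not tested.

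Got2 (chr8:95885911-95888802, minus strand) read 241, 272 and 240 in CtrlCre and 252, 255 and 214 in Cpt1bcKO. The groups overlapped, with the lowest value in Cpt1bcKO replicate 3. On the log2 scale the difference was -0.064 (SE 0.10, 95% CI -0.28 to 0.15, limma adjusted p = 0.870). Without that library it was 0.017.

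**Figure D3:**
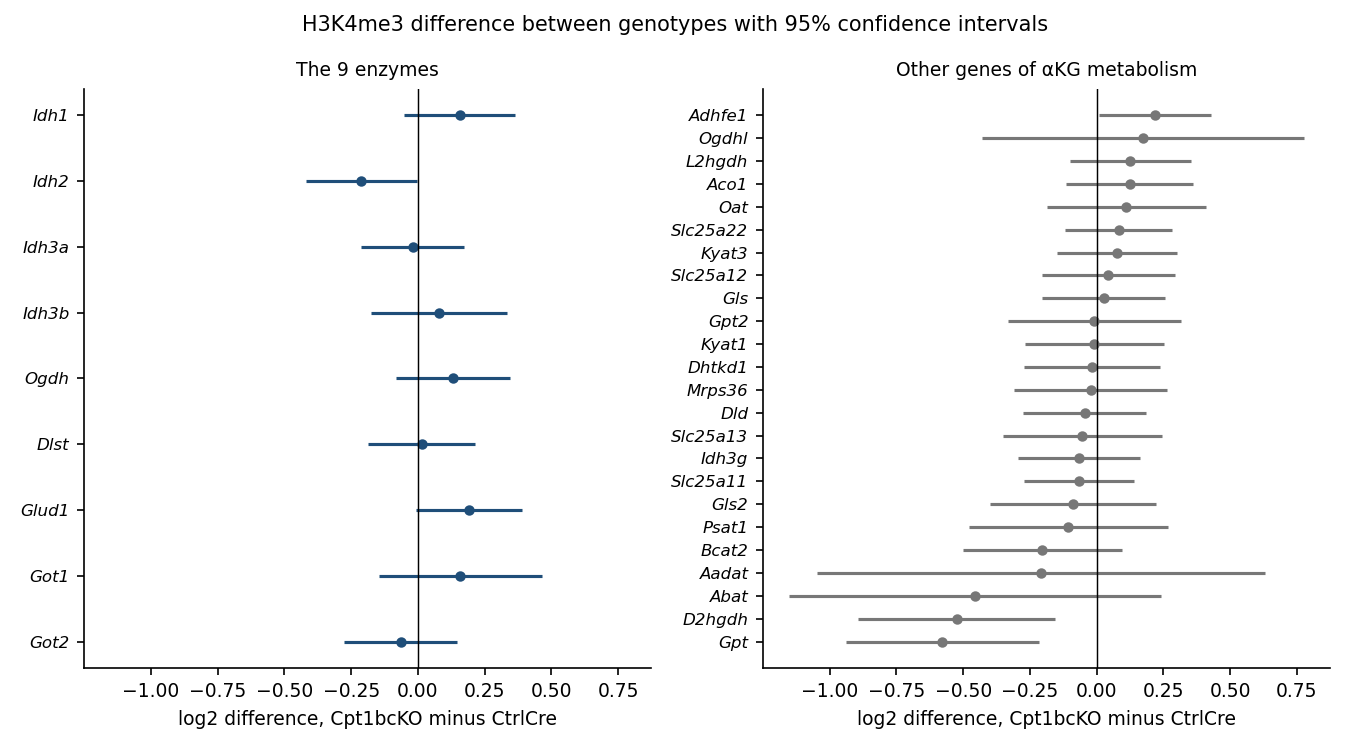
Log2 difference of H3K4me3 (Cpt1bcKO minus CtrlCre) with its 95% confidence interval from limma for the 9 enzymes (left) and for 24 of the other genes of αKG metabolism (right). Of the 9 intervals on the left, only that of Idh2 excludes 0, with an upper limit of -0.0021.

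The precision of these peaks bounds what could have been missed. The confidence intervals of the 9 peaks correspond to ratios of Cpt1bcKO to CtrlCre between 0.747 (lower limit at Idh2) and 1.38 (upper limit at Got1). Of all tested peaks, 2433 had a mean at least as high as the lowest of the 9 (197.5 at Idh3b), and 101 of them (4.15%) had an adjusted p under 0.05. The smallest log2 difference among those called was 0.35 in size. The median size of the log2 difference was 0.088 over these 2433 peaks and 0.13 over the 9 enzymes, and the median SE was 0.10 in both. Differences of the size seen at Idh1, Idh2 and Glud1 were thus smaller than any called after adjustment among these peaks. The power to detect such differences with 3 libraries a group was not computed.

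**Figure D4:**
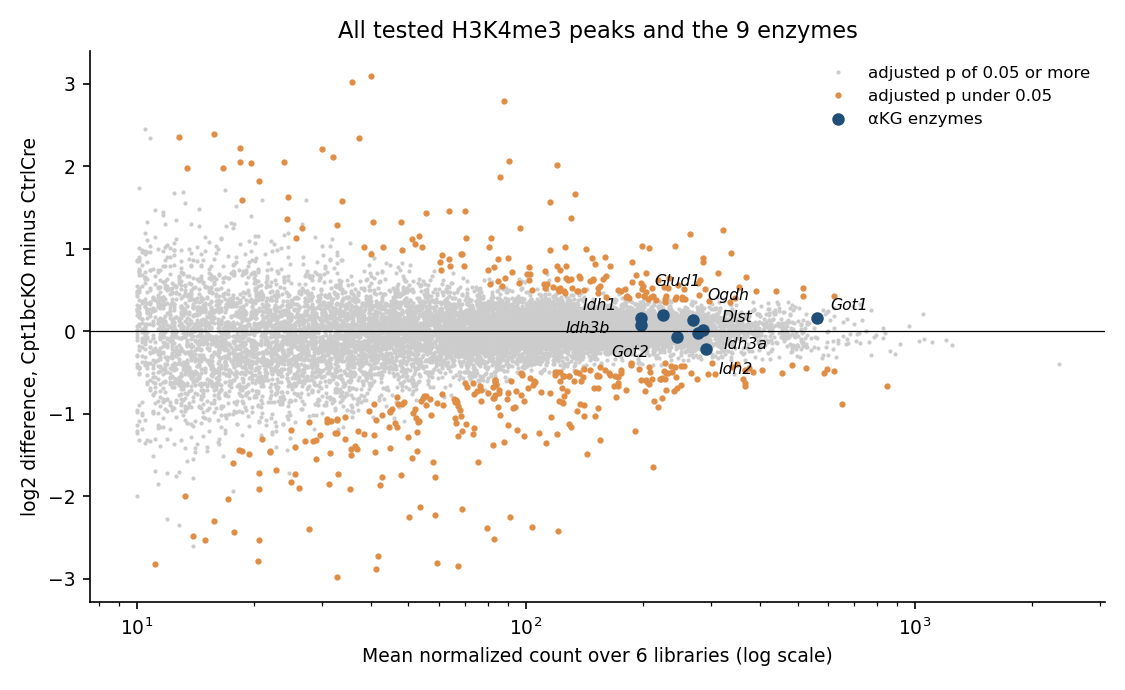
Log2 difference (Cpt1bcKO minus CtrlCre) against the mean normalized count over 6 libraries (log axis) for the 15039 tested peaks (grey), those with an adjusted p under 0.05 (orange, 441) and the 9 enzymes (blue). The 9 points lie between -0.21 and 0.19, inside the grey band.

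Ratios between peaks of a library do not depend on its size factor, so they were compared for pairs of related enzymes, as a description with no test. The ratio of Idh2 to Idh1, the mitochondrial over the cytosolic NADP-dependent enzyme, was 1.49, 1.60 and 1.96 in CtrlCre and 1.41, 1.24 and 1.24 in Cpt1bcKO. The groups did not overlap, and the means were 1.68 ± 0.247 and 1.30 ± 0.102 (SD, n = 3 each). This was the only one of the 4 pairs without overlap. The share of other peak pairs without overlap was not computed, and for single peaks it was 16.3% of those tested. The pair sets the lowest log2 difference of the 9 (Idh2, -0.21) against one above 0 (Idh1, 0.16), so the ratio is no separate finding. The ratio of Idh3a to Idh3b was 1.42, 1.79 and 1.24 in CtrlCre and 1.45, 1.22 and 1.45 in Cpt1bcKO. The ratio of Ogdh to Dlst was 0.903, 0.836 and 0.978 in CtrlCre and 0.863, 1.01 and 1.08 in Cpt1bcKO. The ratio of Got2 to Got1 was 0.439, 0.705 and 0.357 in CtrlCre and 0.392, 0.398 and 0.444 in Cpt1bcKO, with its highest value in the shallowest library.

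**Figure D5:**
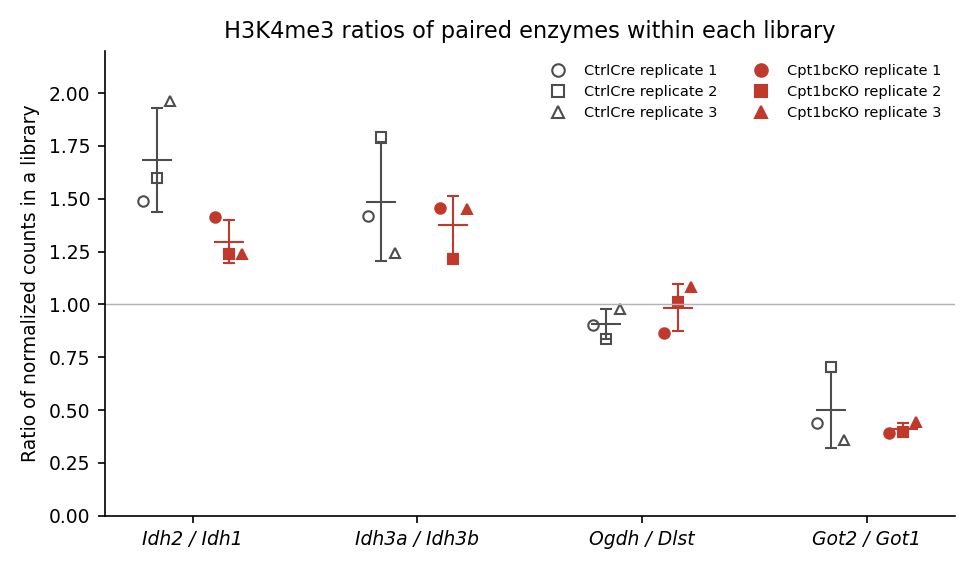
Ratio of normalized H3K4me3 counts of 2 related enzymes within each library (open grey symbols CtrlCre, filled red symbols Cpt1bcKO), with mean and SD (n = 3). The Idh2 to Idh1 ratio was 1.49 to 1.96 in CtrlCre and 1.24 to 1.41 in Cpt1bcKO, and the other 3 ratios overlapped.

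Levels were compared between the genes per kb of peak, since the widths differ. In CtrlCre the order was Dlst (111 ± 4.79 normalized counts per kb), Idh3a (99.2 ± 2.89), Got2 (86.8 ± 6.29) and Idh1 (70.5 ± 3.60), each above the next without overlap of the 3 libraries. Below Idh1 followed Idh2 (62.9 ± 5.97), Glud1 (62.3 ± 2.10), Idh3b (61.6 ± 11.4), Ogdh (59.7 ± 2.51) and Got1 (51.2 ± 13.8), each of which overlapped its neighbour (SD, n = 3 each). The gene with the widest and highest peak in total thus had the lowest density. In Cpt1bcKO, Dlst (112) and Idh3a (97.9) again led, each above the next without overlap, and Idh2 (54.3) came last. The median over the 9 peaks was 66.8 normalized counts per kb over all libraries, against 60.5 over all tested peaks.

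Besides the assigned peaks, 2 further tested peaks that the authors' table leaves without a gene name lay inside member genes, and they were looked at after the values were known. Inside Idh1, a peak of 3968 bases (chr1:65176361-65180329), 93.8% of it intronic, covers the second RefSeq start of Idh1, whose upstream sequence is the second one printed. It read 189, 165 and 211 in CtrlCre and 202, 266 and 211 in Cpt1bcKO. The groups overlapped, and the log2 difference was 0.26 (SE 0.12, limma adjusted p = 0.341). With a correction for GC content, added after seeing the data, its limma adjusted p was 0.0416. This was the only alternative under 0.05, and the others gave 0.0531 to 0.749. The log2 difference was 0.17 without CtrlCre replicate 2 and 0.14 without Cpt1bcKO replicate 2. Per kb this peak held 47.5 ± 5.80 normalized counts in CtrlCre (SD, n = 3), below the 70.5 ± 3.60 of the assigned Idh1 peak. Inside Got2, an intronic peak of 762 bases (chr8:95878279-95879041) read 14, 19 and 26 in CtrlCre and 12, 14 and 22 in Cpt1bcKO, with overlapping groups.

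Of 29 other genes of αKG metabolism, 25 had a tested peak (Aass, Glul, Tat and Bcat1 had none). Of these 25, 10 differences lay above 0 and 15 below, and none had an adjusted p under 0.05 (2.93% of all tested peaks). With an unadjusted p under 0.05 there were 2 higher and 2 lower, against 5.84% higher and 6.98% lower of all tested peaks. The median log2 difference was -0.019. Further subunits of the 2 dehydrogenase complexes, Idh3g (log2 difference -0.066, SE 0.11) and Dld (-0.046, SE 0.11), did not pass the test.

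Among the genes with the smallest p were Gpt, D2hgdh, Adhfe1 and Bcat2. Gpt, an alanine aminotransferase that interconverts αKG and glutamate, read 81, 95 and 82 in CtrlCre and 69, 55 and 49 in Cpt1bcKO, without overlap. Its log2 difference was -0.58 (SE 0.17, limma adjusted p = 0.0809). D2hgdh, the mitochondrial enzyme that oxidizes D-2-hydroxyglutarate to αKG, read 78, 128 and 85 against 60, 71 and 66, a log2 difference of -0.52 (SE 0.18, limma adjusted p = 0.143). These groups did not overlap either, with all 3 Cpt1bcKO values below those of CtrlCre. Both genes were picked by their small p, so the separation adds no evidence. Of the 25 peaks, 1 was higher and 2 were lower in Cpt1bcKO without overlap, against 7.80% higher and 8.46% lower of all tested peaks. Adhfe1, a transhydrogenase that reduces αKG while it oxidizes gamma-hydroxybutyrate, read 385, 374 and 458 against 469, 500 and 442, with overlap (log2 difference 0.22, limma adjusted p = 0.363). Bcat2, the mitochondrial branched-chain aminotransferase, had a log2 difference of -0.20 (SE 0.14, limma adjusted p = 0.619).

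The peaks most like the 9 enzymes over the 6 libraries, by Pearson correlation with the mean of their centred log2 values among 11322 other gene peaks, were those of Slc25a4 (0.997), Amn1 (0.996) and Arfgap2 (0.995). Slc25a4, the ADP/ATP carrier of the inner mitochondrial membrane in heart, read 532, 409 and 612 in CtrlCre and 605, 702 and 470 in Cpt1bcKO. The lowest values were in CtrlCre replicate 2 and Cpt1bcKO replicate 3, as for Got1 and Idh3b, while the other 7 enzymes had other orders. With only 6 libraries, 186 of the 11322 peaks had a correlation above 0.9, and what these peaks have in common was not tested.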

How the data were processed

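Per the submitters' processing notes and the methods of the study, reads were trimmed (Trimmomatic 0.39), aligned to mm10 (STAR 2.6.1d) and freed of duplicates (Picard 2.21.7), and peaks called against input were merged over all libraries. The deposited value per library, treated as a score, is the read count of a union peak divided by a size factor (DESeq2 1.26.0 as run by the authors) and rounded, so a change shared by all peaks is not visible. The deposited genotype means, an unrounded signal computed by the authors, served to recover the whole counts (1 solution for 15848 of 15848 peaks). The deposited fraction of a peak inside its gene entered no test, and the authors' own log2 fold changes, p-values and adjusted p-values were not used.

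Libraries were grouped by title. limma 3.58.1 (R 4.3.3; lmFit, eBayes with trend) was fitted on log2(value + 1), which understates changes of low peaks, with genotype alone, two-sided, for peaks with a mean of at least 10 and with Benjamini-Hochberg adjustment over 15039 peaks. The code was tested on simulated data. A floor of 3 counts equals 1.95 to 6.97 normalized counts (counting error only). GENCODE vM21 gave the annotation. Alternatives changed the pseudocount, filter, scaling, count model, replicate block and libraries, and a GC correction was added after seeing the data. The members and lists were chosen with earlier results of these data known. Named are the 9 enzymes, called peaks and the 5 smallest p among other αKG genes, Cpt1b, markers, the 3 most similar peaks and, chosen after their values were seen, unassigned peaks inside members. Results for 1 named gene are left out here.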

Additional observations from a re-analysis of the deposited data

How the results depend on the processing

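Over 14 alternatives, 0 of 126 values of the 9 enzymes had an adjusted p under 0.05 (lowest 0.277, Got1 with 1 library left out), and 7 changed sign. These were Dlst (-0.0061 with quantile normalization, -0.0092 without CtrlCre replicate 3, -0.041 without Cpt1bcKO replicate 2), Idh3a (0.0046 without CtrlCre replicate 1), Idh3b (-0.079) and Got1 (-0.059) without CtrlCre replicate 2, and Got2 (0.017 without Cpt1bcKO replicate 3). With 1 library left out, the differences ran from -0.050 to 0.0046 at Idh3a, -0.079 to 0.19 at Idh3b, -0.041 to 0.062 at Dlst, -0.059 to 0.34 at Got1, -0.11 to 0.017 at Got2, 0.055 to 0.23 at Ogdh and -0.27 to -0.14 at Idh2. The number of enzymes with an unadjusted p under 0.05 was 1, and became 2 with a minimum mean of 50, 3 with the GC correction, and 0 to 1 with 1 library left out. The median log2 difference of the 9 was -0.0055 to 0.12 with 1 library left out and 0.17 with the GC correction. Libraries with the same replicate number shared little deviation (correlations 0.076, -0.081 and 0.11). This cannot show whether they were paired by design. With the replicate block, 0 enzymes had an unadjusted p under 0.05 (Idh2 at 0.0755 in limma) and 370 tested peaks were called. With the replicate block and the GC correction, 0 enzymes had an unadjusted p under 0.05, the median was 0.17, and 1 gene of the list of other αKG genes was called, as with the GC correction alone (1), while the unassigned peak inside Idh1 had an adjusted p of 0.0531. With 1 library left out, 233 to 428 tested peaks were called against 441, with the fewest without CtrlCre replicate 1 (233), Cpt1bcKO replicate 3 (247) and Cpt1bcKO replicate 2 (290), and with the other settings 338 to 550. The causes of these shifts were not tested. Tests on the recovered counts with edgeR and DESeq2 were planned and not run, because the deposited unit is a score, and limma-voom was used in their place (508 calls). Counting error at the 9 enzymes was highest in the least deep library, CtrlCre replicate 2.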
